A study of Rattus norvegicus with 12 samples.

Results

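The genes described are 10 splicing and RNA-binding regulators, Nova1, Nova2, Esrp1, Esrp2, Srrm4, Khdrbs3, Msi1, Msi2, Elavl2 and Elavl4, out of 33294 genes counted in rat PAC1 cells. They were chosen by name, as regulators known from neural or epithelial tissue and not usual in smooth muscle, and with their counts in these libraries already known. Their levels are therefore given as a description, with fold changes and standard errors but no p-values. PAC1 is a rat pulmonary artery smooth muscle cell line that can be kept in a more differentiated or a more proliferative state, and 12 poly(A) RNA libraries of it fell into 4 groups of 3. The D1 group was the differentiated culture (PAC1-D), passaged weekly, with control siRNA. The P group was the proliferative culture (PAC1-P), passaged more often and at a higher dilution, also with control siRNA. The RBPMS KD1 group was PAC1-D with siRNA against Rbpms, and the MBNL KD group was PAC1-D with siRNAs against both Mbnl1 and Mbnl2. Per the sample labels all groups received 90 pmol of siRNA, a second transfection after 24 h and harvest 48 h after that, while the methods of the study give a longer schedule. All 12 libraries come from 1 cell line, and the methods of the study state that conditions were repeated in biological replicates. The labels do not say how the libraries of a group were separated, and p-values measure only the spread between them.

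Alternative splicing is directed in each tissue by RNA-binding proteins that mark which exons are kept. Nova1 and Nova2 bind YCAY clusters in neurons, Srrm4 (nSR100) promotes the inclusion of neuronal microexons, Khdrbs3 (SLM2) is a STAR-family regulator of neuronal exons, and Elavl2 and Elavl4 are neuronal Hu proteins that bind U-rich RNA. Esrp1 and Esrp2 set the epithelial form of many transcripts, among them Fgfr2 and Cd44, and are repressed by ZEB and Snail factors when epithelial cells become mesenchymal. Msi1 and Msi2, the Musashi proteins, are translational regulators of stem and progenitor cells. Srrm4 and other neuronal genes are held down outside the nervous system by the repressor REST.

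The 10 genes fell into 3 sets by count. Esrp1 and Elavl4 had no count in any of the 12 libraries. This is 0 of 1065939675 counts, which allows a level of up to 0.00281 CPM (counts scaled to a common library total), taking 3 counts as the limit that a count of 0 allows, or up to 0.00563 CPM if both mates of a pair were counted. Nova1, Nova2, Srrm4 and Msi1 had no more than 76 counts in any library. Esrp2, Khdrbs3, Msi2 and Elavl2 had at least 71 counts in every library, and Msi2 reached 11587. Such limits and intervals cover counting error only.

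Where RefSeq promoter windows were given, from 250 bases before to 50 after the annotated start, they are shown for Nova1 and Srrm4, low in D1 and higher in P, for Msi2, the regulator with the most counts, and for Elavl4, which had none. Windows for 6 of the 10 genes were matched. No window was matched for Esrp1, Esrp2, Khdrbs3 or Msi1, so the letters marked below could not be looked for at either Esrp gene. The windows are in the GRCr8 build, which is not the build the authors aligned to, and each is written 5′ to 3′ on the strand of its gene: Nova1 at chr6:69632388-69632687 (minus strand), Srrm4 at chr12:45659479-45659778 (plus strand), Msi2 at chr10:74007448-74007747 (minus strand) and Elavl4 at chr5:130367614-130367913 (minus strand). Capitals mark, on either strand, the E-box CACCTG bound by ZEB and Snail factors, the GC box GGGCGG, and the left part TTCAGCACC and right part GGACAG of the REST site.
Nova1: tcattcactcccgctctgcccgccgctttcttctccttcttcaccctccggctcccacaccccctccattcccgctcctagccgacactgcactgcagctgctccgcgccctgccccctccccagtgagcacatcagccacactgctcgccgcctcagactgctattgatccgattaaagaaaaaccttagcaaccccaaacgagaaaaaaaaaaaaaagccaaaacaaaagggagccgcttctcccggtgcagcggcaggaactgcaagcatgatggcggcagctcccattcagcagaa
Srrm4: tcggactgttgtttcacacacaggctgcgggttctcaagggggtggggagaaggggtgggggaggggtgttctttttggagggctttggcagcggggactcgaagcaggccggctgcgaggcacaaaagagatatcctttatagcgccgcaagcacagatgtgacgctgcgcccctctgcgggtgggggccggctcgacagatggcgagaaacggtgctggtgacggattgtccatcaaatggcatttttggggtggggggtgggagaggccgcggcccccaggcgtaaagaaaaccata
Msi2: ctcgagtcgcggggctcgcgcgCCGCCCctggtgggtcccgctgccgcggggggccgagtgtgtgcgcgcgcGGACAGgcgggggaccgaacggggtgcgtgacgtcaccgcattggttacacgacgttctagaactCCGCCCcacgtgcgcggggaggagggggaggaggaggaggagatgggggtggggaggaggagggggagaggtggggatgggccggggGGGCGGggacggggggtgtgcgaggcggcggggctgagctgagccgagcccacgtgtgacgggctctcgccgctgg
Elavl4: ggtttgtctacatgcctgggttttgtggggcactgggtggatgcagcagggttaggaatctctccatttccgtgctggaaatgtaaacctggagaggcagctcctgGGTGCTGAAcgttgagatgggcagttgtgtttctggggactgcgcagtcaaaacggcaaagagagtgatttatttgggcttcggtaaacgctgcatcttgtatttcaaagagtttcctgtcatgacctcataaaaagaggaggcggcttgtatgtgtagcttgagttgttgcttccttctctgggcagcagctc

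The windows of Nova1 and Srrm4 held none of these letters. Of the matched windows not shown, that of Nova2 held 2 GC boxes and 18 CpG, and that of Elavl2 1 GC box and 19 CpG. The left part of the REST site stood once in the window of Elavl4, and 0.356% of 33469 rat windows of the same length held it. Msi2 has 3 windows in the table, and the one shown held 3 GC boxes and 1 right part of the REST site, which were found in 33.1% and 21.7% of all windows. It was also the richest in CpG, with 38 CpG and 75.7% GC against a median of 7 CpG and 51.7% GC over all windows, while Nova1 had 16 CpG, Srrm4 19 and Elavl4 7. The E-box was in 18.8% of all windows and in none of these 4, but 1 of the Msi2 windows not shown (chr10:73826100-73826399, 2 CpG) held it. A match is a description of letters and not a bound site.

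**Figure D1:**
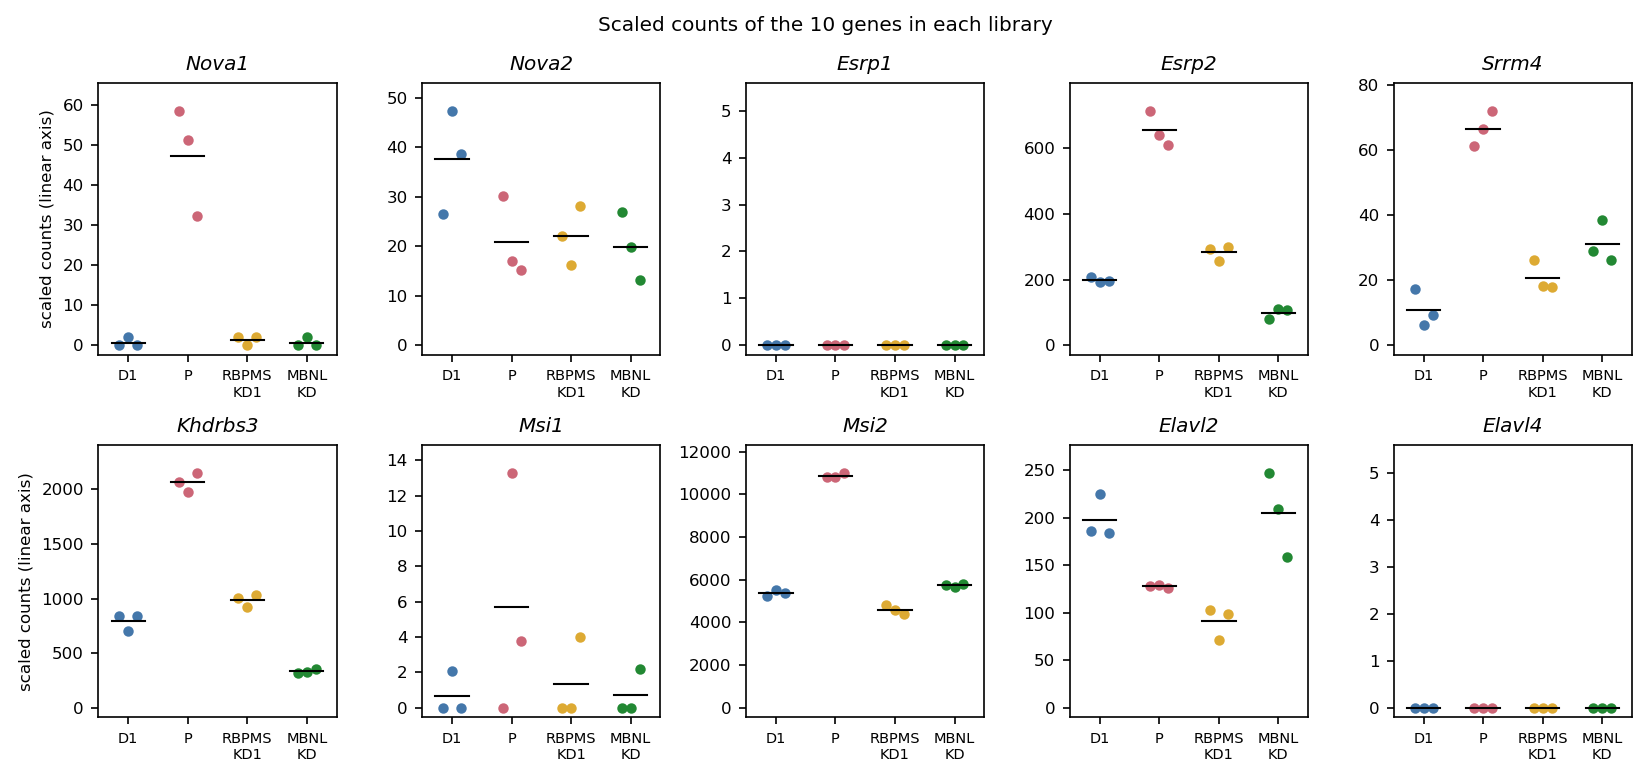
Counts of each of the 10 regulators divided by a library scale factor (y axis, scaled counts, linear, a scale of its own for each gene) in the 4 groups (x axis). Points are the 3 libraries of a group and bars are group means. Nova1, Esrp2, Srrm4, Khdrbs3 and Msi2 are highest in the 3 P libraries, Khdrbs3 and Esrp2 are lowest in MBNL KD, and Esrp1 and Elavl4 lie at 0.

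Among the libraries themselves, total counts lay between 80842635 and 90771289, so that 3 counts in 1 library correspond to 0.033 to 0.037 CPM, or 0.066 to 0.074 CPM with counts halved. Replicate 3 of MBNL KD had the lowest total. On halved counts it differed more from its own replicates (chi-square per degree of freedom 6.79 and 6.83) than any other pair within a group differed (1.89 to 4.06). The regulators' values and calls that rest on this library are therefore given with and without it. The siRNAs lowered their targets. Scaled counts of Rbpms were 3332 ± 62.4 in RBPMS KD1 against 13324 ± 701 in D1, Mbnl1 had 30783 ± 457 in D1 and 7321 ± 95.5 in MBNL KD, and Mbnl2 had 15990 ± 172 and 4741 ± 81.9 (SD, n = 3 libraries each). Scaled counts are counts divided by a factor set by each library's TMM-normalised size. All 10 smooth muscle markers were detected in every group, with sums of 9695 to 10131 CPM in D1, 254 to 269 CPM in P, 4892 to 5016 CPM in RBPMS KD1 and 8007 to 8094 CPM in MBNL KD. Because levels are shares of the RNA of a whole culture, fewer cells that express a gene cannot be told apart from less RNA of it per cell.

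P against D1 asks how the regulators differ between the proliferative and the differentiated state. Each comparison used its own 6 libraries in edgeR's quasi-likelihood test, and a gene was called where its Benjamini-Hochberg adjusted p over all genes tested was under 0.05 and its log2 fold change was above 1 or below -1. The 3 comparisons with D1 share the D1 libraries. Of the 7 regulators tested, 5 were called higher in P (Nova1, Srrm4, Esrp2, Khdrbs3 and Msi2) and 0 lower, and the other 2 (Nova2 and Elavl2) had negative fold changes. Over all 16814 genes tested, 27.6% were called, 16.4% as higher. Of these calls 59.4% were higher, and 45.7% under quantile normalization. The regulators' median log2 fold change was 1.37, beside 0.020 over all genes tested. Since the genes were chosen with these values known, nothing is read from the count. The P and D1 libraries of Nova2 overlapped. How often the groups were separate over all genes tested was not counted, so nothing is read from separation either. Esrp1, Msi1 and Elavl4 had too few counts to be tested, and Nova1 and Srrm4 passed that filter only through their P libraries.

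Nova1, the neuronal YCAY-binding regulator, was close to absent outside P. It had 62, 54 and 34 counts in the P libraries, 0, 2 and 0 in D1, 2, 0 and 2 in RBPMS KD1 and 0, 2 and 0 in MBNL KD. Every P library lay above every other library, and no library of the other groups passed 3 counts. From the summed counts of 150 in P and 2 in D1, the level in P was 77.6 times that in D1 (exact 95% interval 21.1 to 647). Because the libraries of each group were pooled for it, the interval leaves out how far the P libraries differed from each other. Nova1 was also chosen with these counts known, so ratio and interval are descriptions and not a test. The interval widened to 13.5 to 3107 when the counts were halved, which was tried because 67.3% to 70.3% of the counts from 1 to 20 in each library were even, as they would be if both mates of a pair were counted. The fitted log2 fold change was 5.88 (SE 0.65), which became 8.60 without D1 replicate 2, the 1 D1 library with Nova1 counts, and 3.17 under quantile normalization with limma. Nova1 was tested in P against D1 only, the other comparisons having too few counts.

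Nova2, its paralog, stood the other way round. It had 26, 46 and 38 counts in D1, against 32, 18 and 16 in P, 22, 16 and 28 in RBPMS KD1 and 27, 20 and 12 in MBNL KD. D1 had the highest mean, 37.5 ± 10.5 scaled counts, and the other means lay between 19.9 and 22.1, but D1 replicate 1 lay within the range of each of the other groups. The log2 fold changes against D1 were -0.85 (SE 0.35) in P, -0.76 (SE 0.34) in RBPMS KD1 and -0.90 (SE 0.36) in MBNL KD, none of them called. Without D1 replicate 1 the value in P became -1.06 and that in MBNL KD -1.11, both past the thresholds, as were -1.22 in P without P replicate 1 and -1.17 in MBNL KD without MBNL KD replicate 1. Without MBNL KD replicate 3 it was -0.68.

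Srrm4, the microexon regulator, was lowest in D1 and highest in P. Its counts were 17, 6 and 9 in D1, 65, 70 and 76 in P, 26, 18 and 18 in RBPMS KD1, and 29, 39 and 24 in MBNL KD. The mean scaled counts went from 10.9 ± 5.77 in D1 through 20.8 ± 4.67 in RBPMS KD1 and 31.2 ± 6.48 in MBNL KD to 66.6 ± 5.40 in P (SD, n = 3 each). No 2 groups overlapped after scaling, although the highest RBPMS KD1 library (26.2) and the lowest MBNL KD library (26.3) were next to each other. The log2 fold changes against D1 were 2.59 (SE 0.34) in P and 1.51 (SE 0.42) in MBNL KD, both called, and 0.93 (SE 0.44) in RBPMS KD1, not called. With 1 D1 library of at least 10 counts, Srrm4 entered each of these fits only through the group set against D1. With limma on the authors' normalised values it was 0.93 in P and 0.47 in MBNL KD, and neither was called. Without MBNL KD replicate 3 the value in MBNL KD was 1.62, still called. Without D1 replicate 1, the D1 library with the most Srrm4 counts, the value in RBPMS KD1 became 1.42 and was called. The difference between the knockdowns was 0.58 (SE 0.35) and 0.68 without MBNL KD replicate 3, neither of them called.

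Khdrbs3, the STAR-family regulator, differed from D1 in opposite directions in P and in MBNL KD. It had 825, 685 and 829 counts in D1, 2192, 2088 and 2264 in P, 998, 912 and 1034 in RBPMS KD1, and 321, 334 and 327 in MBNL KD. The 4 groups were separate, in the order MBNL KD, D1, RBPMS KD1 and P. The mean scaled counts were 336 ± 19.9 in MBNL KD, 797 ± 79.1 in D1, 988 ± 58.6 in RBPMS KD1 and, at the top, 2065 ± 84.6 in P (SD, n = 3 each). The log2 fold change against D1 was 1.37 (SE 0.060) in P and -1.25 (SE 0.085) in MBNL KD, both called, and -1.29 in MBNL KD without its replicate 3. In RBPMS KD1 it was 0.31 (SE 0.070), below the fold threshold.

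Esrp2 had the same order of groups. This epithelial regulator had 203, 186 and 192 counts in D1, 757, 675 and 644 in P, 292, 255 and 298 in RBPMS KD1, and 82, 112 and 98 in MBNL KD, while its paralog Esrp1 stayed at 0 throughout. No 2 groups overlapped. The mean scaled counts were 99.9 ± 15.9 in MBNL KD, 198 ± 7.98 in D1, 284 ± 22.3 in RBPMS KD1 and, again highest, 655 ± 53.2 in P (SD, n = 3 each). The log2 fold change was 1.72 (SE 0.094) in P, called, and 0.52 (SE 0.11) in RBPMS KD1, not called. In MBNL KD it was -0.99 (SE 0.15), just short of the fold threshold. It passed at -1.04 without MBNL KD replicate 3, at -1.07 without MBNL KD replicate 2, at -1.02 without D1 replicate 2, and barely without D1 replicate 3. In the RefSeq annotation of GRCr8 Esrp2 overlaps Nfatc3, which had 8392 to 8689 counts in D1, 8526 to 9070 in P, 10279 to 10945 in RBPMS KD1 and 6155 to 7302 in MBNL KD. Since the strand setting of the counting is not given in the sources used here, reads of the overlapping genes cannot be told apart, and their part in the result was not tested.

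Of the Musashi genes, Msi2 was abundant and Msi1 nearly absent. Msi2 had 5114, 5345 and 5263 counts in D1, 11489, 11385 and 11587 in P, 4772, 4536 and 4402 in RBPMS KD1, and 5791, 5710 and 5315 in MBNL KD. After scaling, the P libraries lay at about the same level, 10873 ± 106 scaled counts, against 5362 ± 146 in D1. The log2 fold change in P was 1.01 (SE 0.028), at the fold threshold, and it fell just short at 0.99 without D1 replicate 1. The values in the knockdowns were small beside it, -0.22 (SE 0.035) in RBPMS KD1 and 0.10 (SE 0.030) in MBNL KD (0.091 without its replicate 3), although neither knockdown overlapped D1. Msi1 had 0, 14 and 4 counts in P, where 1 library held most of them, and at most 4 in any other library, too few for the test.

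Elavl2 was the one regulator called in RBPMS KD1 against D1, and it was lower there. Of 6 regulators tested 1 was called, beside 4.68% of all 15904 genes tested. It had 182, 218 and 180 counts in D1, 102, 71 and 98 in RBPMS KD1, 136, 136 and 133 in P, and 248, 211 and 145 in MBNL KD. RBPMS KD1 and P lay below D1 without overlap, while MBNL KD overlapped D1. The log2 fold change in RBPMS KD1 was -1.12 (SE 0.16), and without RBPMS KD1 replicate 2, the lowest library, it was -0.97 and no longer called. In P it was -0.64 (SE 0.15) and in MBNL KD 0.054 (SE 0.14), neither of them called, and 0.20 in MBNL KD without its replicate 3. Elavl4, the other neuronal Hu gene in the set, was at 0.

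**Figure D2:**
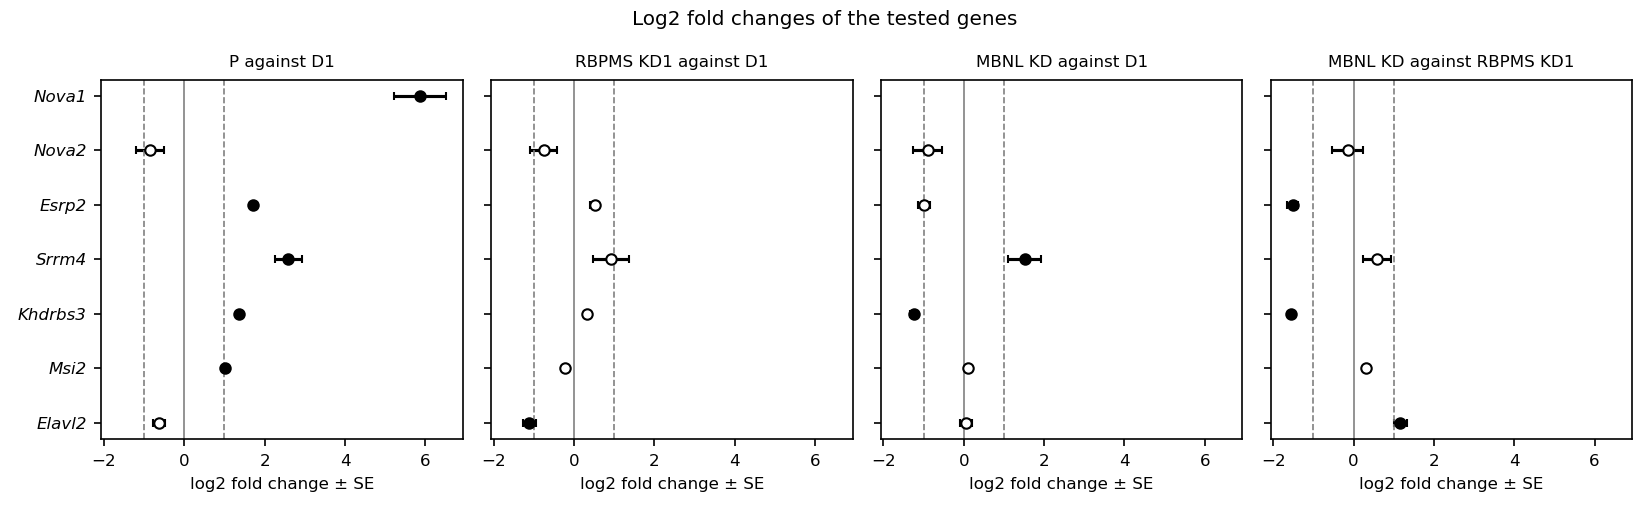
Log2 fold changes (x axis) with standard errors (bars) of the 7 regulators tested (y axis) in 4 comparisons. Nova1 was tested in P against D1 only and has no point in the others. Filled points passed both thresholds, open points did not, and dashed lines mark a log2 fold change of 1 in either direction. In P 5 filled points lie to the right, in RBPMS KD1 the only filled point is Elavl2 on the left, and in MBNL KD Srrm4 and Khdrbs3 lie on opposite sides.

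In MBNL KD against D1, 2 of the 6 regulators tested were called, Srrm4 higher and Khdrbs3 lower, beside 10.2% of all 16053 genes tested. Without MBNL KD replicate 3 there were 3, Esrp2 being added. Srrm4 passed the filter on low counts there only through its MBNL KD libraries. MBNL KD was also set directly against RBPMS KD1, since both are knockdowns in the same differentiated cells. Of 6 regulators tested 3 were called, beside 11.9% of 16111 genes. Khdrbs3 was lower in MBNL KD, with a log2 fold change of -1.56 (SE 0.077), Esrp2 was lower at -1.51 (SE 0.14), and Elavl2 was higher at 1.17 (SE 0.17). Without MBNL KD replicate 3 these were -1.62, -1.57 and 1.31, all of them still called, while with limma on the authors' normalised values Elavl2 was 0.88 and not called. Msi2 (0.31, SE 0.034) and Nova2 (-0.15, SE 0.39) were not called, and without that library their values were 0.30 and 0.061.

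Close relatives with wide expression were counted beside the regulators. For the lists from here on, the shares called over all genes tested were 27.6% in P, 4.68% in RBPMS KD1 and 10.2% in MBNL KD. Elavl1 (HuR), the ubiquitous Hu protein, had between 5211 and 6438 mean scaled counts in the 4 groups, and Khdrbs1 (Sam68) between 12288 and 16685. Their log2 fold changes lay between -0.30 and 0.21 in the 4 comparisons, and none was called. The tissue-restricted relatives Elavl3, Khdrbs2 and Srrm3 had no more than 8 counts in any library. Among 12 other tissue-restricted splicing regulators, 7 were tested in P and 2 were called higher, of which Celf4, a neuronal CELF protein, rose from 28.3 to 374 mean scaled counts (log2 fold change 3.71, SE 0.18, edgeR adjusted p = 4.6e-19). The other was Rbfox1, named after its values were seen, at 0 in D1 and 25.9 mean scaled counts in P, through which alone it passed the filter on low counts. Rbm38 was lower, at -0.94 (SE 0.059), and barely passed the fold threshold without P replicate 2. In MBNL KD 2 of 6 were called higher. Celf3 rose from 46.3 to 360 (log2 fold change 2.95, SE 0.15, edgeR adjusted p = 9.1e-17) and Celf4 to 170 (2.58, SE 0.23, edgeR adjusted p = 3.5e-11), and without MBNL KD replicate 3 the log2 fold changes were 2.92 and 2.68. In RBPMS KD1, 0 of 6 were called by edgeR, and Celf4 and Celf3 had fold changes of -0.35 and 0.34 (edgeR adjusted p = 0.48 and 0.26). Rbm20, a muscle splicing regulator, was higher there without passing the fold threshold (0.89, SE 0.25), and was called at 1.03 without D1 replicate 1.

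The factors known to act on these regulators were considered next. Of 13 such genes, 11 were tested in P, 1 was called higher and 3 lower. Rest, the repressor of neuronal genes, had 8157 ± 105 scaled counts in D1, 9342 ± 38.4 in P, 6202 ± 191 in RBPMS KD1 and 5349 ± 50.9 in MBNL KD (SD, n = 3 each). It was not called in any comparison, with log2 fold changes against D1 of 0.19, -0.39 and -0.61 (-0.61 without MBNL KD replicate 3). Its corepressor Rcor1 was called only in comparisons of MBNL KD, falling from 6594 to 3211 mean scaled counts against D1 (log2 fold change -1.04, SE 0.034, edgeR adjusted p = 2.4e-21, and -1.04 without MBNL KD replicate 3). Of the mesenchymal repressors of Esrp genes, Snai2 fell in P from 4109 to 627 (log2 fold change -2.72, SE 0.048, edgeR adjusted p = 1.1e-31) and Zeb2 from 13182 to 5778 (-1.19, SE 0.028, edgeR adjusted p = 5e-28). Snai1 was at 922 in both groups (-0.0053, SE 0.064), and Twist1 was higher without passing the fold threshold (0.50, SE 0.040). Zeb1 did not pass the fold threshold, at 0.54 (SE 0.031, edgeR adjusted p = 3.5e-17). The epithelial Grainyhead factors moved apart in P, with Grhl1 rising from 20.8 to 130 (log2 fold change 2.63, SE 0.28, edgeR adjusted p = 4.3e-10) and Grhl2 falling from 1049 to 410 (-1.36, SE 0.070, edgeR adjusted p = 2.8e-18). In RBPMS KD1 edgeR called 0 of 11, and in MBNL KD 0 higher and 2 lower, the second being Grhl1 at 8.83 mean scaled counts, whose call was lost without MBNL KD replicate 1, MBNL KD replicate 3 or D1 replicate 2 (-0.83 to -1.50 over all single omissions).

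Transcripts known as targets of the regulators were counted at the gene level, which does not show their splicing. Of 14 genes 13 were tested, and in P 2 were called higher and 4 lower. Gphn (gephyrin), a Nova target, rose from 1441 to 5983 mean scaled counts (log2 fold change 2.05, SE 0.038, edgeR adjusted p = 4.8e-31). Cdkn1a, the cell cycle inhibitor p21 and a Musashi target, fell from 20254 to 5683 (-1.84, SE 0.027, edgeR adjusted p = 6.5e-34). Fgfr2, the classic target of Esrp proteins, fell from 406 in D1 to 156 in P (-1.38, SE 0.11, edgeR adjusted p = 3.3e-13) and to 198 in RBPMS KD1, the 1 gene of the list called there (-1.03, SE 0.11, edgeR adjusted p = 4.2e-09), a call lost without D1 replicate 2 or RBPMS KD1 replicate 2 (-0.92 at the least). In MBNL KD Fgfr2 lay on the other side of D1, at 749 (0.89, SE 0.083), short of the fold threshold, and it was called higher than in RBPMS KD1 (1.91, SE 0.10). Without MBNL KD replicate 3 these were 0.90 and 1.92. In MBNL KD against D1 the 1 gene called was Cd44, another Esrp target, which rose from 15247 to 32443 (1.09, SE 0.029, edgeR adjusted p = 1.4e-23, and 1.10 without MBNL KD replicate 3).

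Markers of epithelial and neuronal cells were set beside the regulators. Of 14 epithelial markers 3 had enough counts, and all 3 rose in P. Tjp3, a tight junction scaffold, went from 104 to 859 mean scaled counts (log2 fold change 3.04, SE 0.10, edgeR adjusted p = 9.6e-24), Cgn (cingulin) from 59.8 to 310 (2.37, SE 0.17, edgeR adjusted p = 1e-14) and Krt8 from 3218 to 7250 (1.17, SE 0.032, edgeR adjusted p = 6e-26). The list summed to 36.2 to 37.5 CPM in D1, 99.5 to 105 in P, 40.0 to 42.4 in RBPMS KD1 and 54.6 to 55.9 in MBNL KD. Most of it was Krt8 (means of 34.8, 87.7, 38.9 and 53.9 CPM), with Tjp3 at a mean of 10.4 CPM in P. The defining markers Cdh1 (E-cadherin) and Epcam had 8 to 12 and 6 to 8 counts in P and at most 1 count in any other library. In MBNL KD, where Esrp2 was lower, Tjp3 fell from 104 to 48.7 (-1.09, SE 0.22, edgeR adjusted p = 9.1e-05), a call lost at -0.91 without MBNL KD replicate 3. Cgn was at -0.99 and not called, but it was called without MBNL KD replicate 3 (-1.32), D1 replicate 1 or D1 replicate 3. Krt8 went the other way, at 0.58 (0.57 without MBNL KD replicate 3), short of the fold threshold. The part of these markers in the levels of Esrp2 was not tested.

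Of 14 neuron markers 7 were tested in P, where 3 were called higher and 1 lower, beside 27.6% of all genes tested called in either direction. Stmn2, a tubulin-binding protein of growing axons, rose from 147 to 7104 mean scaled counts (log2 fold change 5.59, SE 0.059, edgeR adjusted p = 6.4e-38) and Map2 from 1021 to 4153 (2.02, SE 0.045, edgeR adjusted p = 1e-28). The third to rise was Uchl1 (1.06, SE 0.026), while Dlg4 (PSD-95), a synaptic scaffold, fell from 4449 to 1828 (-1.29, SE 0.040, edgeR adjusted p = 2e-24). Syt1, a vesicle calcium sensor, was also lower in P, at 163 against 298, without passing the fold threshold (-0.88, SE 0.12, edgeR adjusted p = 8.9e-08). The list summed to 168 to 171 CPM in D1, 401 to 410 in P, 157 to 159 in RBPMS KD1 and 166 to 168 in MBNL KD, of which Uchl1 made up means of 104, 245, 95.9 and 95.3 CPM. Tubb3, at 43.7 mean scaled counts in D1 and 58.3 in P, and Syn1, at 63.8 and 57.7, were tested and not called. The synaptic vesicle gene Snap25 was at 0 in all P libraries and Syp had at most 10 counts in any library. Nefl, Nefm, Gap43, Dcx and Ina had at most 20. In MBNL KD the 1 neuron marker called was Syt1, which fell from 298 to 41.4 (-2.84, SE 0.17, edgeR adjusted p = 4.2e-15, and -2.69 without MBNL KD replicate 3), and in RBPMS KD1 edgeR called 0 of 7. Stmn2 was at -0.95 in MBNL KD and was also called there without D1 replicate 3, MBNL KD replicate 1 or MBNL KD replicate 2 (to -1.08), while without MBNL KD replicate 3 it was -0.71. The part of neuron-type expression in the levels of Nova1 and Srrm4 was not tested.

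**Figure D3:**
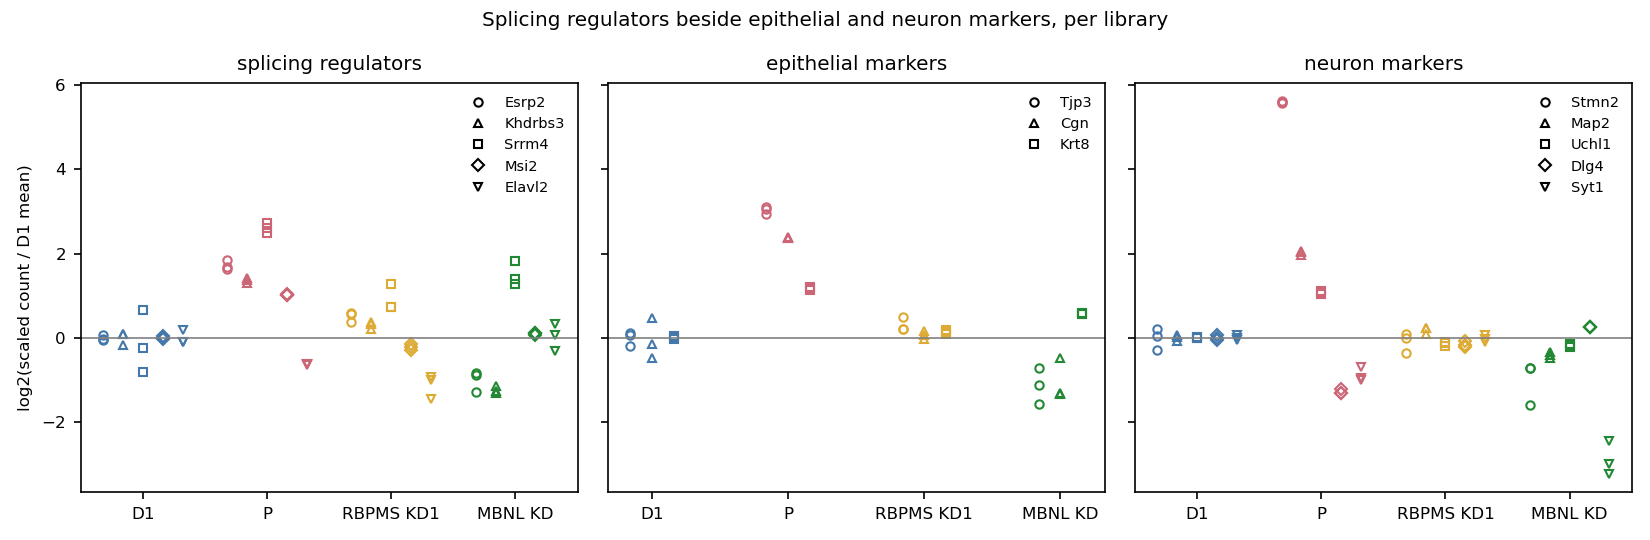
Log2 of the scaled count over the gene's own D1 mean (y axis) in each library (points) of the 4 groups (x axis), for 5 regulators, 3 epithelial markers and 5 neuron markers. In P, Esrp2, Khdrbs3, Srrm4 and Msi2 lie above 0, as do the 3 epithelial markers and Stmn2, Map2 and Uchl1, while Elavl2, Dlg4 and Syt1 lie below. In MBNL KD Esrp2, Khdrbs3, Tjp3, Cgn, Stmn2, Map2, Uchl1 and Syt1 lie below 0, while Srrm4, Krt8 and Dlg4 lie above.

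Of the 10 smooth muscle markers, 9 were called lower in P and 1 higher. Acta2 fell from 446854 to 4104 mean scaled counts (log2 fold change -6.77, SE 0.036, edgeR adjusted p = 4.7e-46), with Cnn1 (-6.11) and Tagln (-5.71) next, while the intermediate filament gene Des was the 1 that rose. In RBPMS KD1 9 of 10 were lower at an edgeR adjusted p under 0.05 and 5 of them passed the fold threshold, with Mylk at -1.64 (SE 0.029, edgeR adjusted p = 1.5e-25) the furthest. Myh11 was at -0.98 there and passed at -1.01 without D1 replicate 3. In MBNL KD 7 were lower at an edgeR adjusted p under 0.05, none of them past the fold threshold and the furthest being Smtn at -0.67, and 3 were higher. Of these Des rose from 225 to 596 (1.41, SE 0.094, edgeR adjusted p = 4.7e-14, and 1.45 without MBNL KD replicate 3), while Myh11, at 6616 against 4563 (0.54, SE 0.037), and Cnn1 (0.12) did not pass the fold threshold. The part of these markers in the levels of the regulators was not tested.

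The genes whose levels ran most like those of each abundant regulator were found by the root mean square difference of log2 scaled counts, each gene centred on its own mean, over the 12 libraries among 11819 genes. For Esrp2 they were Opn3 (0.128), Vav2 (0.153) and Irf1 (0.153). For Khdrbs3 they were Them6 (0.147), Aldh5a1 (0.152) and Map3k1 (0.154). For Msi2 the differences were smaller, with Slc41a1 at 0.051, Hif1a at 0.051 and Primpol at 0.059. For Elavl2 they were Tbc1d8b (0.177), Hdgfl3 (0.191) and Lzic (0.191). The libraries of a group share their treatment, so these values describe likeness over 4 groups more than over 12 independent samples.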

How the data were processed

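Poly(A) RNA of 12 PAC1 libraries was measured, in 4 groups of 3 taken from the sample labels. The authors subsampled reads with seqtk, aligned them with STAR 2.7.11b to mRatBN7.2 and counted them per RefSeq gene symbol with featureCounts. Strand setting and mate counting are not given in the sources used here. The deposited counts are not normalised. The deposited normalised signal values, which the authors made with noisyR and quantile normalization, hold 19812 of 33294 genes and 7 of the 10 regulators (Nova1, Esrp1 and Elavl4 are not among them) and were used in an alternative only.

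Here R 4.3.3 with edgeR 4.0.16 was used for each comparison (filterByExpr, TMM, quasi-likelihood test, Benjamini-Hochberg adjustment over all genes tested), and was tested on simulated data. Standard errors were derived from the F statistic and depend on the fit across all genes. Alternatives used DESeq2 1.42.0, limma 3.58.1, other normalizations and filters, halved counts, the replicate block and single omissions. Total counts of 80842635 to 90771289 per library put 3 counts at 0.033 to 0.037 CPM.

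The regulators and the lists beside them were chosen with earlier results of these data known, so p-values printed for list genes are descriptions only. Named besides the regulators were called list genes with a group mean of at least 100 scaled counts, at most 3 per list and comparison with D1, and Rest, Zeb1, Zeb2, Elavl1, Khdrbs1 and the siRNA targets. Rbfox1, Uchl1, Des in P, Cdh1, Epcam, Snap25, Syp, Snai1, Twist1, Csf1r, Tek in RBPMS KD1, Grhl1, Myh11, Cnn1 and Smtn in the knockdowns, Fgfr2 and Stmn2 in MBNL KD, Rbm20, Rbm38, Gfap, S100b, Pecam1, Sox2, Nes, Tubb3, Syn1, the low neuron markers and the low paralogs were named after their values were seen. No p-value is printed for these. A gene that the naming rule selects is not reported here. No transcript lengths were used, so levels are not compared between genes. GRCr8 annotation gave promoter windows and overlapping genes only.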

Additional observations from a re-analysis of the deposited data

How the results depend on the processing

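Of 198 log2 fold changes of the regulators under the alternatives other than single omissions, 189 kept their direction and side of the thresholds, 4 newly passed, 3 no longer passed and 2 turned in sign, and of 150 under single omissions the counts were 135, 9, 2 and 4. The cause was not tested for any of these. The turned signs were near 0. Elavl2 in MBNL KD against D1 was -0.15 under quantile normalization with limma and -0.12 with limma on the authors' normalised values, and ranged from -0.10 to 0.20 over single omissions. Nova2 in MBNL KD against RBPMS KD1 ranged from -0.43 to 0.061. Under limma on the authors' values, 3 regulators were called in P (Srrm4 was 0.93 there) and 1 in MBNL KD (Srrm4 was 0.47), and genes called were 209 for RBPMS KD1, 784 for MBNL KD and 1050 between the knockdowns, against 745, 1643 and 1920, and Elavl2 between the knockdowns was 0.88. Under quantile normalization 4 regulators were called in MBNL KD (Nova2 at -1.16 and Esrp2 at -1.17 added) and 7 in P (Nova2 at -1.47 and Elavl2 at -1.08 added), and the share of calls that were higher went from 59.4% to 45.7% in P and from 65.4% to 54.3% for RBPMS KD1. Over single omissions, the count of regulators called in RBPMS KD1 ranged from 0 to 2, while that for MBNL KD was 3 in every omission. With the replicate block, 4593, 730, 1634 and 1915 genes were called in the 4 comparisons, and 5, 1, 2 and 3 regulators, as without it. The numbers are not said to pair the samples, and same-numbered libraries had correlations of deviations from -0.028 to 0.017. Genes of under about 100 counts are limited by depth, and the log2 fold change of Nova1, 5.88, ranged from 5.36 to 8.60 over single omissions and was 3.17 under quantile normalization with limma.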

Other observations

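Outside the epithelial and neuronal lists, endothelial markers were also examined in the proliferative cells. Of 4 endothelial and leukocyte markers tested in P, 2 were called higher and 0 lower. Tek, the angiopoietin receptor, rose from 23.9 to 315 mean scaled counts (log2 fold change 3.71, SE 0.18, edgeR adjusted p = 6.4e-19). Cdh5 (VE-cadherin) had no count in D1, RBPMS KD1 or MBNL KD and 122 to 138 counts in the P libraries, through which alone it passed the filter on low counts. The endothelial marker Pecam1 had too few counts to be tested, at 5.05 mean scaled counts in P and 4.09 in D1. Tek was also the 1 marker of this list called in RBPMS KD1, at 59.8 mean scaled counts (1.32, SE 0.29). In MBNL KD the 1 of 3 called was the leukocyte marker Csf1r, higher at 58.1 against 23.5 (1.30, SE 0.29, and 1.26 without MBNL KD replicate 3). The list summed to no more than 7.43 CPM in any library.

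Of 8 neural progenitor and glia markers, the progenitor gene Sox2 had no count in D1, P, RBPMS KD1 or MBNL KD. Nes (nestin), another progenitor gene, had 5602 mean scaled counts in D1 and 8494 in P. It had 4020 in RBPMS KD1 and 4041 in MBNL KD, and was not called in any comparison. The list summed to 57.5 to 64.0 CPM in D1 and 99.1 to 106 in P, most of it Nes (means of 60.6 and 103 CPM). In MBNL KD 2 of the 3 tested were called, Gfap higher at 19.6 against 4.11 mean scaled counts (2.23, SE 0.61) and S100b lower at 10.9 against 37.5 (-1.77, SE 0.39). Gfap, with 0 to 8 counts in D1, passed the filter on low counts only through MBNL KD. Both were named after their values were seen, and without MBNL KD replicate 3 they were 2.44 and -1.77. Over all single omissions Gfap ranged from 1.66 to 3.19. In P and RBPMS KD1 none of the 2 tested by edgeR was called.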
